A study of Mus musculus with 40 samples.

Results

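The comparison described here is between female mice in which H2A.Z was deleted from hippocampal neurons and replaced with virally expressed wild-type H2A.Z.1 (H2A.Z.1WT, below WT) and female Myc-tag control mice (Myc). It addresses which expression differences from control remained when the deleted histone variant was supplied by a vector. The members were taken from the sample titles as the females carrying the deletion plus wild-type H2A.Z.1 and the females carrying the Myc tag alone. They are 7 of the 40 mice of the series, namely 4 WT mice (sample numbers 19, 20, 39 and 40) and 3 Myc mice (11, 31 and 32). The 4 female mice with deletion and no replacement (H2A.ZKO, below KO; 13, 14, 33 and 34) and the corresponding males (5 WT, 4 Myc) are given where they show how the female WT mice differ. Values per mouse follow these orders throughout.

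All animals came from a colony floxed for both H2A.Z.1 and H2A.Z.2, as the study's methods give it, although the labels call the genotype of the Myc mice WT. WT mice received 2 adeno-associated vectors in the hippocampus. One carried Cre under the neuronal Synapsin promoter and the other carried 3x-Myc-tagged H2A.Z.1 and GFP under the CMV promoter, which is not restricted to neurons. KO mice received the same Cre vector with 3x-Myc and GFP, and Myc mice received 3x-Myc and GFP without Cre. WT and Myc mice therefore differed in Cre as well as in the H2A.Z.1 transgene, and KO mice, which share Cre with the WT mice and lack the transgene, are given beside them. Ages were not given in the sources used here. The RNA came from whole hippocampal tissue, so that fewer cells of a type and less RNA per cell cannot be told apart, and the labels do not say whether each sample is 1 mouse, which is assumed here.

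H2A.Z is a variant of histone H2A that takes the place of the canonical histone in nucleosomes, often next to transcription start sites, and it is encoded by a pair of genes, H2az1 and H2az2. In neurons it is exchanged during learning and is known as a regulator of memory-related transcription. The gene groups described below belong to the immune and glial cells of the hippocampus, to myelin, and to the neuronal types of its subfields.

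Total counts per mouse ranged from 26683636 to 42818051 among the 7 mice. Myc mouse 32 stood apart. The 10 rows with its largest excess over the other 6 mice were mostly noncoding or ribosomal-RNA-like. They took 16.5% of its normalised counts, against 1.42% to 2.02% in the other 6 mice. Because the rows were chosen for that excess, only the size of the gap is informative. The choroid plexus transcript Ttr was at 92.15, 4104, 906.6 and 49.37 CPM (normalised read count, scaled by library size) in WT mice, at 84.34, 3655, 2654 and 35.55 CPM in KO mice and at 10.1, 26.06 and 7.025 CPM in Myc mice. WT mice 20 and 39 thus held many times more of it than any Myc mouse. Results that rest on these mice are given with and without them.

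H2az1, the gene that the WT vector supplies, was at 47.71, 32.75, 41.89 and 38.2 CPM in WT mice, at 28.11, 29.16, 30.33 and 36.31 CPM in KO mice, and at 34.48, 34.12 and 28.1 CPM in Myc mice. WT mouse 20 lay below 2 of the Myc mice, so the groups overlapped. The log2 fold change of WT over Myc was 0.32 (SE 0.174), with an adjusted p of 0.261 by edgeR's quasi-likelihood test with Benjamini-Hochberg adjustment, which is the test behind every adjusted p given here. H2az2, which the vector does not supply, was at 28.29, 26.69, 25.08 and 25.26 CPM in WT mice, at 28.28, 29.97, 26.19 and 27.95 CPM in KO mice, and at 24.23, 25.98 and 19.37 CPM in Myc mice (log2 fold change of WT over Myc 0.18, SE 0.115, adjusted p = 0.339). Every KO mouse lay above every Myc mouse for H2az2. KO over Myc was -0.06 on the log2 scale for H2az1 (adjusted p = 0.828) and 0.28 for H2az2 (adjusted p = 0.0609), so the deletion was not visible in these gene-level counts. WT and KO therefore name the groups and not a measured level. The sample titles write KD for the deletion, and KO is the paper's term. The deleted part of each gene was not separated in the counts, and reads of the transgene and of the endogenous gene were not separated. The paper itself reports lower H2A.Z.1 mRNA in KO mice and lower H2A.Z.2 mRNA in all groups given Cre. It also reports higher H2A.Z.1 mRNA with each H2A.Z.1 vector and a strong loss of H2A.Z in cultured neurons. For the small loss in tissue, it names low sensitivity to a neuron-specific deletion as the likely reason.

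Of 28449 genes tested, 1669 were higher in WT than in Myc females (5.87%) and 1000 were lower (3.52%) at an adjusted p under 0.05. With a further limit of 1 on the absolute log2 fold change (differentially expressed genes, DEGs), 884 were higher (3.11%) and 260 were lower (0.914%). All WT mice lay above all Myc mice for 12.2% of the genes tested and below them for 9.37%. The counts depended on single mice, falling to 541 higher without Myc mouse 31, to 697 without Myc mouse 32, to 722 without WT mouse 20 and to 989 without WT mouse 19, and to between 422 and 641 lower without any one of WT mice 19, 20 and 39 or Myc mice 31 and 32. Without the mice above 500 CPM of Ttr the counts were 490 and 149, and without Myc mouse 32 as well they were 80 and 48. Among the 140 genes that passed and are named or were followed across the settings, 23 still passed in that smallest comparison. None of the 140 changed sign there. It uses a subset of the mice on which the genes were chosen, so the unchanged signs say little.

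**Figure D1:**
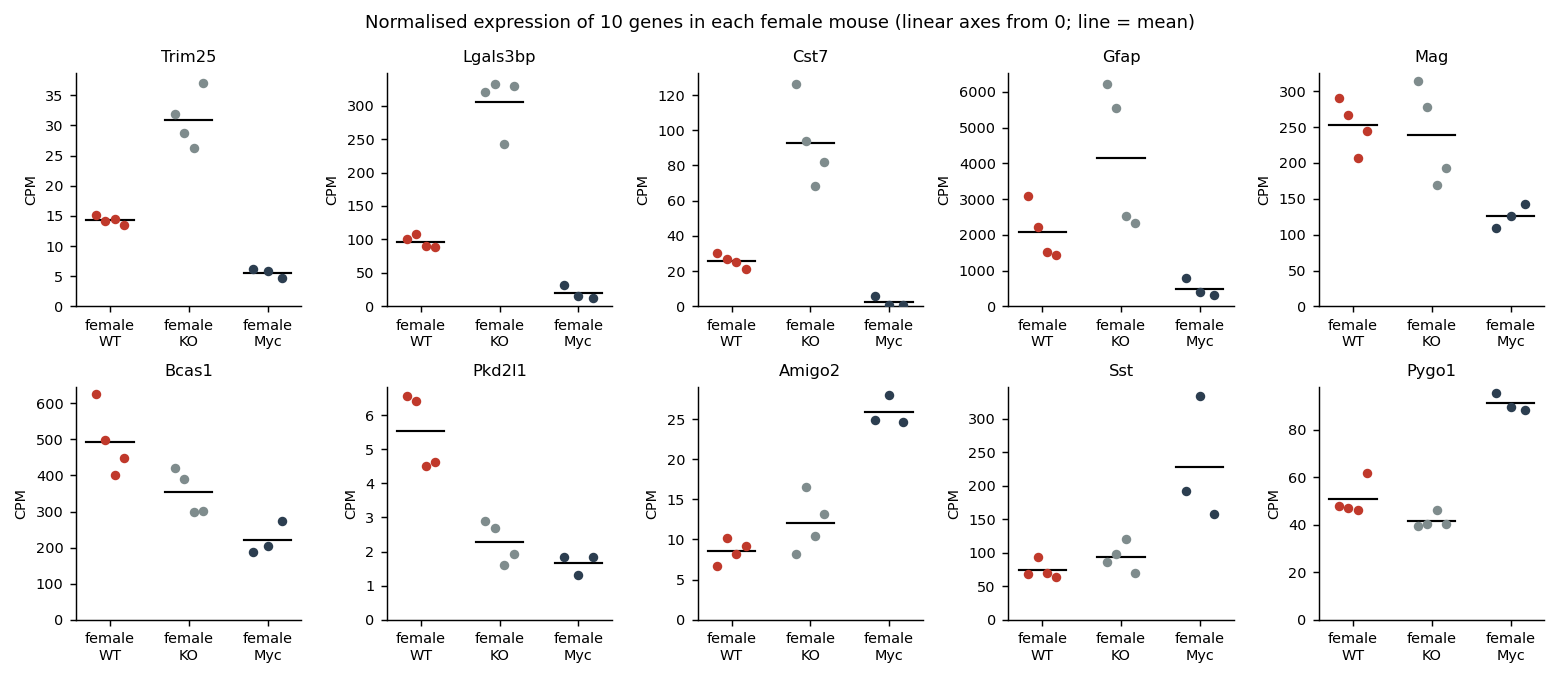
Normalised expression (CPM, linear axes from 0) of 10 genes in each female WT, KO and Myc mouse, 1 point per mouse in order of sample number, with the mean as a line. For Trim25 and Lgals3bp the WT mice lie between the KO and the Myc mice, while for Mag and Sst the WT and KO mice overlap and both lie apart from the Myc mice.

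The promoters of some of the genes with the clearest immune differences carry a recognisable sequence, the interferon-stimulated response element, bound by the factors that interferon activates. It was searched for as GAAA, any 2 bases and GAAA again, on either strand, with overlapping matches counted, in the 300 bases around the RefSeq gene starts of the GRCm38.p6 table, 250 of them before the start. It occurred in 943 of 27025 promoters (3.49%) and in 27 of the 49 members of the interferon response list that had a promoter entry (55.1%). A match is a description of the letters and not of binding. The 4 windows below are shown because their genes are described next, with matches in capitals. They were located by exact match in GRCm39 and each is written in the direction of its gene.
Isg15, chr4:156285307-156285378, minus strand: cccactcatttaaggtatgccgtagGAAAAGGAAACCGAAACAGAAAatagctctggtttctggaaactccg
Ifit3, chr19:34560748-34560841, plus strand: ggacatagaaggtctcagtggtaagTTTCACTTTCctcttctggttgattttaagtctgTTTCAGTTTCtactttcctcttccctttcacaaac
Bst2, chr8:71990206-71990271, minus strand: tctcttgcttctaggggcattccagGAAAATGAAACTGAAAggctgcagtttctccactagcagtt
Oas1g, chr5:121025677-121025719, minus strand: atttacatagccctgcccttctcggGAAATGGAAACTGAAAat

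Interferon-stimulated genes were higher in WT than in Myc females and lower than in KO females. Of 65 members tested, 54 rose over Myc and none fell, with a median log2 fold change of 1.92, against 0.015 over all genes tested. All 65 were lower than in KO mice (median -1.82), where 9.17% of all genes were lower. The members' summed level was 1449, 1517, 1605 and 1494 CPM in WT mice, 4793, 4487, 4376 and 9716 CPM in KO mice, and 666.2, 426.9 and 375.6 CPM in Myc mice. Each WT mouse lay above each Myc mouse and below each KO mouse.

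Trim25, a ubiquitin ligase of the antiviral RNA-sensing pathway (chr11:88890202-88911122 in GRCm39), was at 15.11, 14.2, 14.56 and 13.41 CPM in WT mice, at 31.86, 28.65, 26.22 and 37.02 CPM in KO mice, and at 6.137, 5.813 and 4.726 CPM in Myc mice. The WT mice were close together and apart from both other groups. Its log2 fold change over Myc was 1.36 (SE 0.179, adjusted p = 3.67e-05), and it passed in all 20 alternatives, with a range of 1.25 to 1.44. Lgals3bp, a secreted galectin-binding glycoprotein, was at 100.9, 107.7, 90.27 and 88.04 CPM in WT mice, at 320.2, 332.4, 242.7 and 328.6 CPM in KO mice, and at 31.31, 15.74 and 12.99 CPM in Myc mice (log2 fold change over Myc 2.26, SE 0.34, adjusted p = 0.00036). Mx2, a dynamin-like antiviral GTPase, and Xaf1, a pro-apoptotic interferon target, rose with log2 fold changes of 1.95 and 1.67.

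The genes whose promoters are printed above, and Irf7, were chosen after their values were seen. Isg15, a ubiquitin-like modifier, was at 12.43, 11.51, 19.97 and 11.24 CPM in WT mice, at 38.75, 35.1, 46 and 84.32 CPM in KO mice, and at 5.074, 2.649 and 1.107 CPM in Myc mice (log2 fold change over Myc 2.17, SE 0.558, adjusted p = 0.0146). It passed in 14 of 20 alternatives and was lost, among others, without Myc mouse 31 or Myc mouse 32. Ifit3, which binds viral RNA complexes, rose by 2.08 on the log2 scale (SE 0.428), and Bst2, which tethers budding virions, by 2.03 (SE 0.421). Oas1g, of the family that makes oligoadenylates on sensing double-stranded RNA, was at 1.716, 1.515, 1.734 and 1.316 CPM in WT mice and at 0.1933, 0.03954 and 0.1277 CPM in Myc mice (log2 fold change 3.57, SE 0.673, adjusted p = 0.00224). Its family has near-identical copies among which reads may be divided, so its own level is uncertain. Irf7, the factor that amplifies the interferon response, was at 22.52, 19.24, 29.18 and 22.62 CPM in WT mice, at 75.05, 69.21, 88.26 and 149.1 CPM in KO mice, and at 6.837, 4.903 and 3.874 CPM in Myc mice. Trim25, Lgals3bp, Xaf1 and Irf7 held no match to the element in their window, which says only that those letters are absent from it.

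The number of interferon genes that passed was 34 without Myc mouse 32, 35 without Myc mouse 31, and 54 without Myc mouse 11. Myc mouse 11 had the highest summed level of the 3 controls. Between the mice numbered 1 to 20, where it is the only control, 6 members passed, with a median of 1.29, and between those numbered 21 to 40, 55 passed, with a median of 2.34. Without the mice above 500 CPM of Ttr and without Myc mouse 32, 2 passed, with a median of 1.59. All of these medians were positive, which could hardly be otherwise. For all 65 members every WT mouse lay above every Myc mouse, so leaving mice out cannot test the direction.

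Antigen presentation and microglial genes were also higher. MHC class I and its peptide-loading genes, which display peptides to CD8 T cells, had 15 of 23 members higher and none lower (median log2 fold change 1.55), and all but 1 of the 23 were lower than in KO mice. B2m, the light chain of class I molecules, was at 443.4, 435.3, 408.9 and 442.5 CPM in WT mice, at 1409, 1280, 1037 and 1717 CPM in KO mice, and at 214.3, 104.9 and 122.3 CPM in Myc mice (log2 fold change over Myc 1.55, SE 0.329, adjusted p = 0.00444). The class I count fell to 4 without Myc mouse 31, to 6 without Myc mouse 32 and to 9 without WT mouse 20. Of 11 MHC class II genes, 2 passed, H2-Aa and H2-Ob, both of them genes of antigen-presenting cells. H2-Aa passed in 7 of the 20 alternatives, and without any one mouse other than Myc mouse 11 none of the 11 passed.

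Of 28 genes of phagocytic microglia and macrophages, 18 rose and none fell (median 1.53), and 21 were lower than in KO mice. Cst7, a cysteine protease inhibitor of disease-associated microglia, was at 30.34, 26.97, 25.3 and 21.34 CPM in WT mice, at 126.1, 93.78, 68.18 and 82.24 CPM in KO mice, and at 5.943, 1.028 and 0.8089 CPM in Myc mice. Every WT mouse lay above the Myc mice and below the KO mice (log2 fold change over Myc 3.20, SE 0.63, adjusted p = 0.00331). Itgax, an integrin of activated microglia and dendritic cells, rose by 3.26, and Tyrobp, the adaptor of the TREM2 receptor, by 1.72. The list had 9 members higher without Myc mouse 32 and 11 without Myc mouse 31. It had 19 higher within sample numbers 1 to 20 and 17 within 21 to 40.

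Of 20 genes of homeostatic microglia 12 rose (median 0.731), and of 21 complement genes 11 rose (median 1.33). C5ar1, the receptor for the complement fragment C5a, was at 2.314, 2.029, 1.209 and 1.707 CPM in WT mice, at 4.632, 4.15, 2.468 and 3.732 CPM in KO mice, and at 0.4349, 0.435 and 0.5535 CPM in Myc mice. It passed in all 20 alternatives (log2 fold change 1.94, SE 0.321, adjusted p = 0.000672). Without Myc mouse 31 or Myc mouse 32, 7 of the homeostatic and 6 of the complement genes passed as higher. Of 34 chemokine and cytokine genes, 13 were higher and 2 lower, and the higher count was 5 without Myc mouse 31 and 7 without Myc mouse 32. Among these, Tgfb1, a cytokine that restrains microglial activation, rose by 1.06 and also passed in all 20 alternatives, and Il16, a chemoattractant cytokine that is also on the dentate granule neuron list, fell by 0.89.

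**Figure D2:**
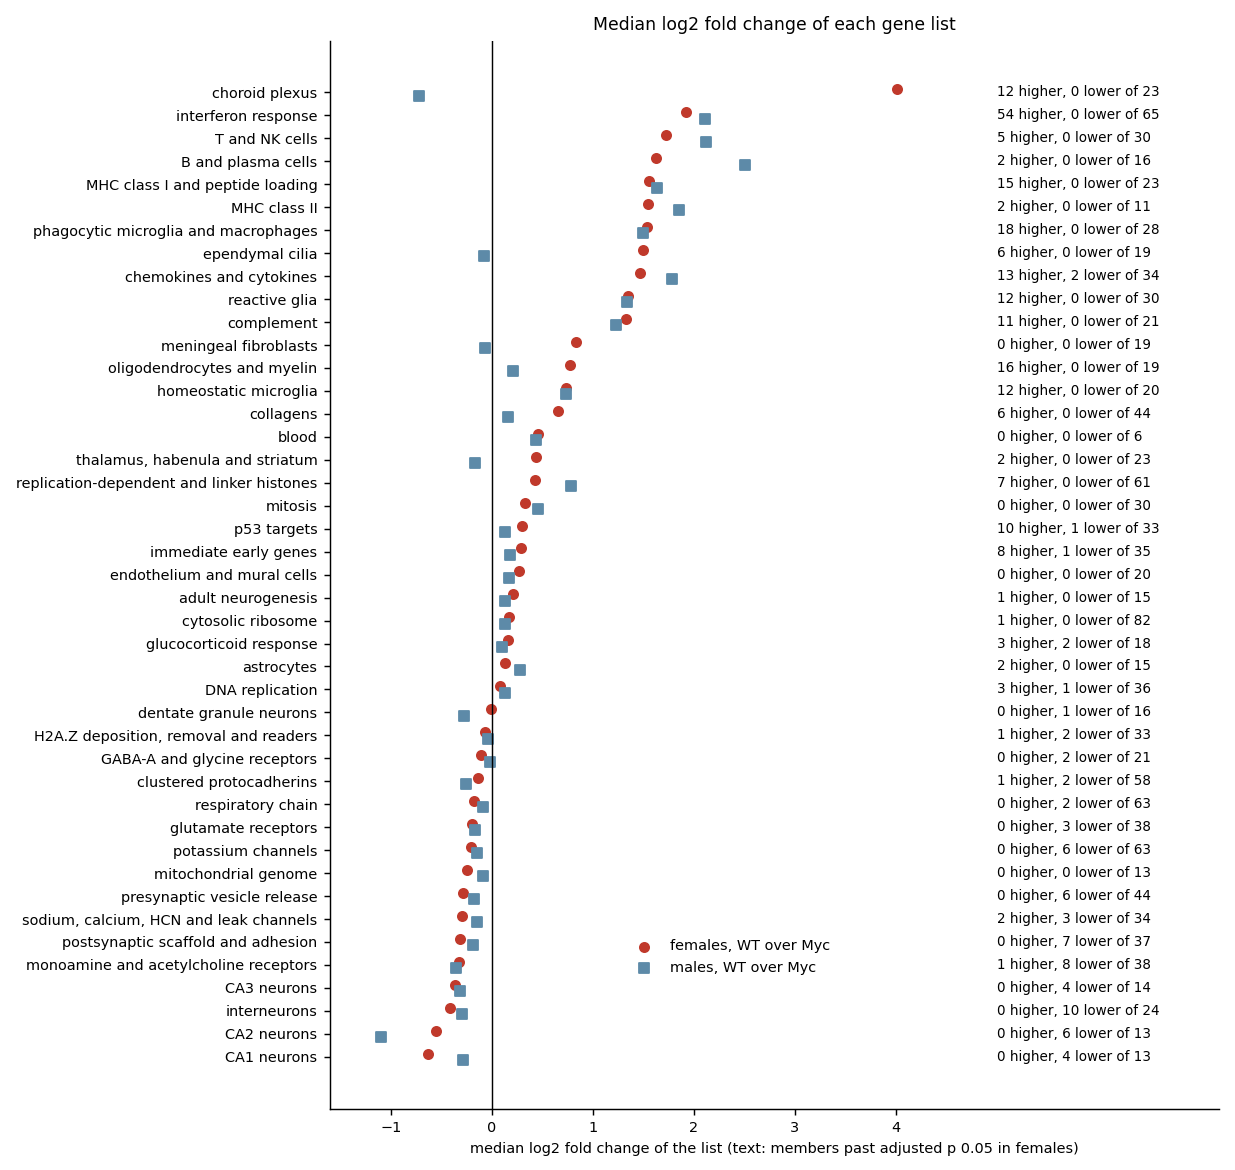
Median log2 fold change of WT over Myc for each gene list in females (circles) and males (squares), with the count of members that passed in females at the right. The interferon, T cell and microglial lists lie near each other in both sexes, whereas the choroid plexus list lies at 4.01 in females and at -0.72 in males. The choroid plexus medians depend on a few mice of each sex, and the difference between the sexes passed for none of its genes.

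Some lymphocyte and reactive glial genes were higher too. Of 30 T and NK cell genes, 5 passed, all higher, and 1 passed without Myc mouse 31 or Myc mouse 32, 2 without WT mouse 20 and 3 without WT mouse 19 or 39. They include Lag3, a T cell checkpoint receptor that microglia also express, at 46.02, 37.29, 38.88 and 34.54 CPM in WT mice and at 16.6, 5.971 and 5.194 CPM in Myc mice. The summed T and NK cell level was 71.3, 65.93, 62.34 and 59.12 CPM in WT mice, 236.3, 205.4, 127.9 and 384.2 CPM in KO mice, and 32.28, 17.28 and 14.39 CPM in Myc mice, so the 3 groups did not overlap. Lag3 alone supplied most of this sum in every WT mouse, for example 46.02 of the 71.3 CPM in mouse 19. The sum is therefore not specific to T and NK cells. Of 16 B and plasma cell genes 2 passed, Ighm and Jchain, which encode the heavy chain and the joining chain of IgM, and they passed in 7 and in 5 of the 20 alternatives. Of 30 reactive glia genes 12 rose. Gfap, the intermediate filament of astrocytes, was at 3095, 2233, 1530 and 1427 CPM in WT mice, at 6229, 5548, 2540 and 2334 CPM in KO mice, and at 785.6, 398.7 and 316.7 CPM in Myc mice (log2 fold change over Myc 2.05, SE 0.408, adjusted p = 0.00348). WT mice 19 and 20 were the highest of their group, as KO mice 13 and 14 were of theirs. The reactive glia count fell to 1 without Myc mouse 32 and to 2 without Myc mouse 31, WT mouse 19 or WT mouse 20, and was 7 without Myc mouse 11.

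**Figure D3:**
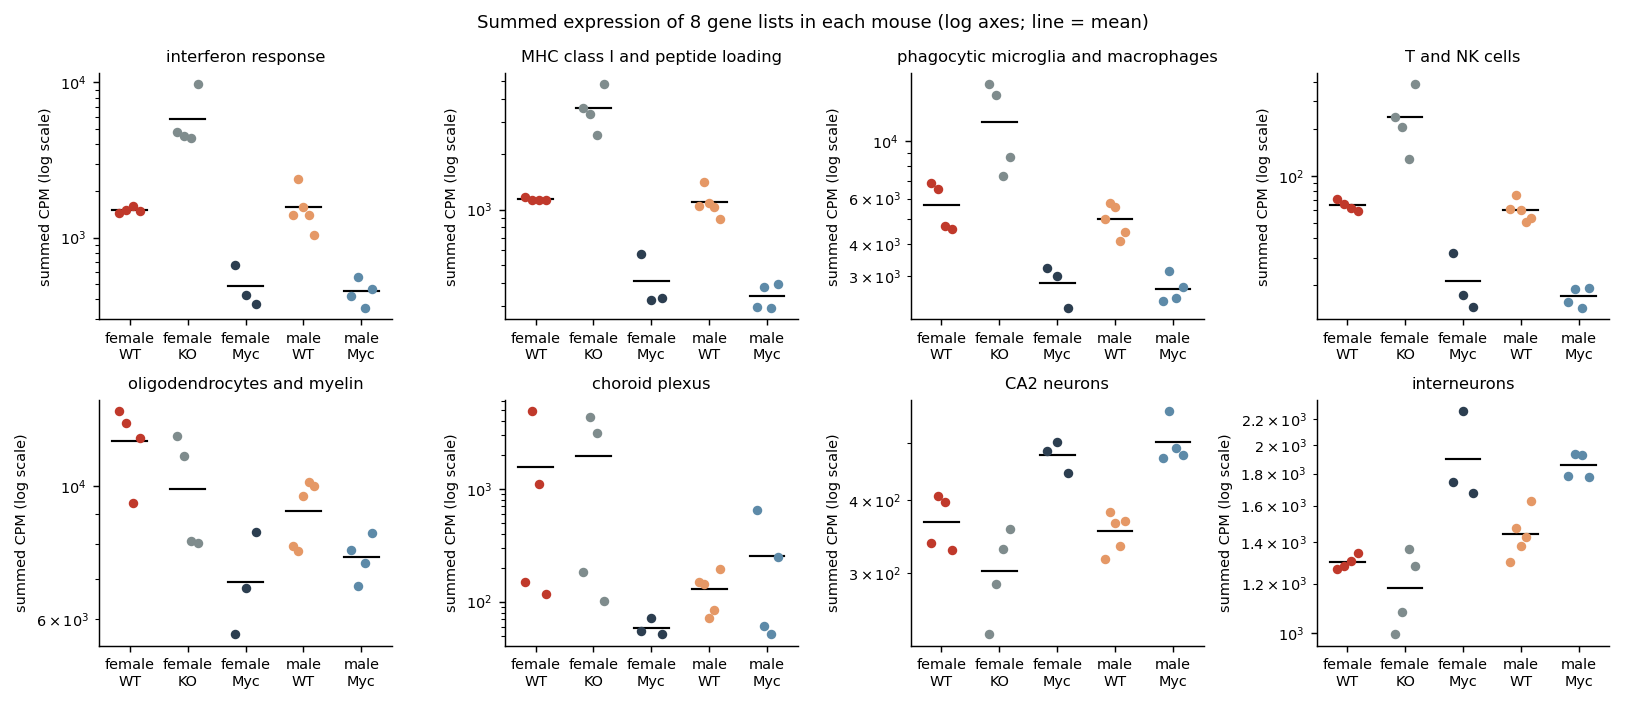
Summed level (CPM, log axes) of 8 gene lists in each mouse, with the group mean as a line. Interferon, MHC class I and T cell sums separate the female WT, KO and Myc mice without overlap, the choroid plexus sums spread over more than an order of magnitude within WT and KO females, and WT and KO overlap for oligodendrocyte, CA2 and interneuron sums. Most of the T cell sum in WT females is Lag3, which microglia also express.

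Myelin genes were higher in WT females, and there the KO females did not lie further from control. Of 19 oligodendrocyte and myelin genes, 16 rose over Myc (median 0.774) and the 3 that did not pass, Pdgfra, Cspg4 and Vcan, are the markers of oligodendrocyte precursors on the list. Against KO mice 1 of the 19 was lower and none higher (median 0.079). Mag, an adhesion protein of the inner myelin layer (chr7:30598464-30614474), was at 290.3, 267.1, 207.5 and 244.8 CPM in WT mice, at 314.9, 277.5, 169.9 and 193.5 CPM in KO mice, and at 109.5, 126.6 and 142.6 CPM in Myc mice. WT and KO mice overlapped and neither overlapped the Myc mice. Its log2 fold change over Myc was 1.00 (SE 0.211, adjusted p = 0.00418), and it passed in all 20 alternatives, as did Gjb1, a gap junction protein of myelinating cells (0.93, SE 0.199).

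Mbp, a major protein of compact myelin chosen, like Pdgfra below, after its values were seen, was at 5207, 4570, 3546 and 4174 CPM in WT mice, at 4073, 3864, 2731 and 2545 CPM in KO mice, and at 2022, 2451 and 3002 CPM in Myc mice (log2 fold change over Myc 0.81, SE 0.191, adjusted p = 0.0075). The lowest WT mouse lay above the highest Myc mouse. Bcas1, a marker of early myelinating oligodendrocytes that was chosen after its values were seen, was at 624.9, 499.2, 402.5 and 449.5 CPM in WT mice, at 420.4, 390.6, 299.8 and 300.6 CPM in KO mice, and at 188.6, 205.5 and 272.9 CPM in Myc mice. It rose over Myc by 1.15 (SE 0.18, adjusted p = 0.00036) and over KO by 0.48 (SE 0.162, adjusted p = 0.0379). Pdgfra, the receptor that marks precursors, was at 32.74, 39.38, 40.55 and 43.4 CPM in WT mice and at 43.29, 46.7 and 44.87 CPM in Myc mice (log2 fold change -0.20, adjusted p = 0.226).

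In males none of the 19 myelin genes passed (median 0.208, 3 at an unadjusted p under 0.05), and Mag had a log2 fold change of 0.39 (adjusted p = 0.234). The difference between the sexes passed for none of the 19 (11 at an unadjusted p under 0.05), and for Mag it was 0.61 (SE 0.275, adjusted p = 0.822). In females 13 members passed between the mice numbered 1 to 20 and 2 between those numbered 21 to 40. The count was 6 without Myc mouse 31, 7 without Myc mouse 11 and 8 without WT mouse 20. Myelin is abundant in fibre tracts beside the hippocampus, and the part of dissection in these values was not tested. The summed level of 23 thalamic, habenular and striatal genes overlapped between the groups (240.9, 298.7, 314.8 and 213.7 CPM in WT mice, against 195.9, 203.1 and 237.4 CPM in Myc mice). Of these genes 2 passed as higher, Tcf7l2 and Gbx2, with 9 at an unadjusted p under 0.05 and a median of 0.436. Tcf7l2, a Wnt-pathway factor of thalamic neurons, was at 6.552, 8.219, 17.66 and 6.011 CPM in WT mice and at 4.373, 4.468 and 4.768 CPM in Myc mice. None passed without WT mouse 39 or without any one of the Myc mice.

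Choroid plexus genes, which mark the tissue that secretes cerebrospinal fluid in the neighbouring ventricle, had the largest median of all the lists. Of 23 members, 12 rose over Myc (median 4.01) and none differed from KO. Their summed level was 149.6, 4921, 1103 and 115.6 CPM in WT mice, 184, 4357, 3118 and 100.6 CPM in KO mice, and 54.41, 70.86 and 51.09 CPM in Myc mice. Only WT mice 20 and 39 and KO mice 14 and 33 stood far above the rest. Ttr, the thyroid hormone carrier, was 6.49 higher on the log2 scale (SE 2.1, adjusted p = 0.0474). It passed in 5 of 20 alternatives, and none of the 23 genes passed without WT mouse 20, without any one of the 3 Myc mice, or when only the 2 groups compared were fitted. In males the list's median was -0.72 and no member passed. Male Myc mice 1 and 41 held 651.1 and 250.3 CPM of the summed list, and Myc mice 22 and 23 held 60.2 and 51.55 CPM. Male WT mice ranged from 71.41 to 193.4 CPM. The difference between the sexes passed for none of the 23 genes (20 at an unadjusted p under 0.05). Foxj1, the master regulator of motile cilia, was at 11.31, 21.96, 7.598 and 8.964 CPM in WT mice and at 3.31, 2.57 and 3.363 CPM in Myc mice (log2 fold change 2.01, SE 0.422, adjusted p = 0.00421). Of 19 ependymal genes, 6 passed, and 1 passed without WT mouse 20 or without Myc mouse 32. No member passed of the 20 endothelial and mural, the 19 meningeal fibroblast or the 6 blood genes.

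Genes of CA2 pyramidal neurons, the hippocampal subfield tied to social memory, were lower in WT females. Of 13 members 6 fell and none rose (median -0.55), and the count stayed between 4 and 6 without any one mouse. Amigo2, a cell adhesion protein that marks CA2 (chr15:97142006-97145196), was at 6.708, 10.22, 8.169 and 9.177 CPM in WT mice, at 8.214, 16.6, 10.4 and 13.16 CPM in KO mice, and at 24.84, 28 and 24.65 CPM in Myc mice. WT and KO mice overlapped, and all of them lay below the Myc mice (log2 fold change of WT over Myc -1.59, SE 0.225, adjusted p = 0.000137). It passed in all 20 alternatives, with a range of -1.74 to -1.49. Avpr1b, the vasopressin receptor of CA2 neurons, was at 0.208, 0.02569, 0.1825 and 0.1423 CPM in WT mice and at 1.087, 0.7908 and 1.15 CPM in Myc mice. It had the largest fall that the rule for named genes selects (log2 fold change -2.82, SE 0.595, adjusted p = 0.00398). Rgs14, a signalling regulator that restrains plasticity in CA2, fell by 0.98 (SE 0.203, adjusted p = 0.00386). Sostdc1, on the CA2 and the choroid plexus lists alike, is counted under both. In males the same list had 6 members lower (median -1.10).

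Interneuron genes were lower as well, with 10 of 24 falling and none rising (median -0.411). Against KO mice 4 of the 24 were higher and none lower (median 0.004), where 5.36% of all genes were higher. Sst, the neuropeptide somatostatin (chr16:23707321-23711733), was at 68.9, 93.34, 69.09 and 64.31 CPM in WT mice, at 86.2, 98.55, 120.9 and 68.98 CPM in KO mice, and at 192, 334.6 and 157.8 CPM in Myc mice. WT and KO mice overlapped below the Myc mice (log2 fold change of WT over Myc -1.62, SE 0.247, adjusted p = 0.00036). Cort, the related neuropeptide cortistatin, was at 2.808, 2.363, 2.601 and 3.095 CPM in WT mice and at 7.248, 17.71 and 7.323 CPM in Myc mice. Crhbp, which binds corticotropin-releasing hormone, was at 26.5, 18.31, 22.95 and 19.35 CPM in WT mice and at 36.19, 72.05 and 37.47 CPM in Myc mice. Myc mouse 31 had the highest level of all 3 genes, and without it 1 of the 24 genes passed, against 5 without WT mouse 19. Sst passed in 19 of 20 alternatives, the exception being the mice numbered 1 to 20, where none of the 24 passed.

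Among the other pyramidal cell lists, 4 of 13 CA1 genes and 4 of 14 CA3 genes fell. The CA1 count was 0 without WT mouse 19, WT mouse 20 or Myc mouse 31, and the CA3 count was 1 or 2 without any one mouse other than WT mouse 40. Of 16 dentate granule neuron genes 1 fell, the shared Il16. Neto1, an auxiliary subunit of kainate receptors, was at 72.34, 87.41, 79.75 and 123.5 CPM in WT mice and at 166.3, 171.5 and 173 CPM in Myc mice (log2 fold change -0.91, SE 0.213, adjusted p = 0.00795). Slc17a7, the vesicular glutamate transporter of pyramidal cells, was at 539.5, 466.5, 564.2 and 676.1 CPM in WT mice, at 360.8, 426.1, 622.2 and 682.5 CPM in KO mice, and at 916, 913.8 and 808.1 CPM in Myc mice. All of the WT and KO mice lay below the Myc mice.

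Synaptic and channel genes passed as lower in small numbers. They were, where 3.52% of all genes were lower, 6 of 44 genes of presynaptic release, 7 of 37 of postsynaptic scaffold and adhesion, 6 of 63 potassium channel genes, 3 of 38 glutamate receptor genes and 2 of 21 GABA-A and glycine receptor genes. More members had a negative log2 fold change, 35 of the 37 postsynaptic (median -0.317) and 36 of the 44 presynaptic genes (median -0.287). All WT mice lay below all Myc mice for 24 of the 37 and 20 of the 44, against 9.37% of all genes tested. Against KO mice, 12 of the 44 presynaptic and 14 of the 63 potassium channel genes were higher in WT mice, where 5.36% of all genes were higher and 9.17% lower. Lower than in KO were 3 of the potassium channel and 1 of the glutamate receptor genes. Higher than in KO were also 5 of the 38 glutamate receptor and 2 of the 21 GABA-A and glycine receptor genes, and none of the 37 postsynaptic genes (median 0.141). The presynaptic count over Myc was 0 without WT mouse 20, 1 without WT mouse 19 or Myc mouse 31, and 3 without WT mouse 39 or Myc mouse 11 or 32. The potassium channel count was 1 without WT mouse 20 or Myc mouse 31, 2 without WT mouse 19 and 3 without Myc mouse 11 or 32, and the postsynaptic count was 0 without WT mouse 19, WT mouse 20 or Myc mouse 31 and 1 without Myc mouse 11 or 32. The glutamate receptor count was 1 without WT mouse 19, WT mouse 20 or Myc mouse 31 and 9 without WT mouse 40. The GABA-A and glycine receptor count was 1 without WT mouse 19 or 20 and 0 without Myc mouse 31. Of 38 monoamine and acetylcholine receptor genes 8 fell and 1 rose, and 2 to 8 fell without any one mouse. Of 34 sodium, calcium, HCN and leak channel genes 3 fell and 2 rose, and 1 to 3 fell without any one mouse. Against KO, 3 of these receptor genes were higher and 4 lower, both near the shares over all genes. Of these channel genes 13 were higher and 1 lower. Chrnb2, the beta 2 subunit of neuronal nicotinic receptors, was at 30.32, 34.47, 39.57 and 36.89 CPM in WT mice, at 16.64, 17.78, 23.45 and 27.9 CPM in KO mice, and at 50.78, 55.87 and 48.41 CPM in Myc mice. The WT mice lay between the groups with no overlap, and the gene passed in all 20 alternatives (log2 fold change over Myc -0.55, SE 0.116, adjusted p = 0.00399, and over KO 0.72, SE 0.109, adjusted p = 3.61e-05). Nalcn, the sodium leak channel, was at 61.96, 74.74, 64.05 and 72.35 CPM in WT mice, at 32.13, 36.52, 48.68 and 52.55 CPM in KO mice, and at 93.96, 110.5 and 108.7 CPM in Myc mice.

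Of 35 immediate early genes, 8 rose and 1 fell, and 5 rose without WT mouse 19. Atf3, a stress-induced transcription factor, was at 8.164, 7.115, 4.929 and 5.015 CPM in WT mice, at 17.61, 17.49, 9.471 and 11.66 CPM in KO mice, and at 2.271, 1.621 and 0.7664 CPM in Myc mice. Fos, the classical marker of neuronal activity, was at 34.5, 17.93, 18.3 and 15.54 CPM in WT mice and at 5.557, 8.304 and 7.877 CPM in Myc mice (log2 fold change 1.58, SE 0.359, adjusted p = 0.00678). Arc, which mediates receptor endocytosis at active synapses, overlapped between the groups (log2 fold change 0.28, adjusted p = 0.733). Of 33 p53 target genes 10 rose, among them Cdkn1a, the cell cycle inhibitor p21, at 21.17, 14.49, 12.64 and 14.01 CPM in WT mice, 32.07, 26.22, 21.44 and 27.16 CPM in KO mice and 6.982, 5.338 and 5.365 CPM in Myc mice. The p53 count was 4 without WT mouse 19 or WT mouse 20, 5 without Myc mouse 32 and 6 without Myc mouse 31. None of 30 mitosis genes passed over Myc, though 26 had a positive log2 fold change (median 0.324). All WT mice lay above all Myc mice for 10 of the 30, against 12.2% of all genes tested. Lower than in KO mice were 22 of the 30, where 9.17% of all genes were lower.

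Histone genes took part on a small scale. Of 61 replication-dependent and linker histone genes 7 rose, among them H2bc4, a canonical H2B gene, at 63.08, 51.96, 56.86 and 49.34 CPM in WT mice, 67.03, 63.46, 53.9 and 56.83 CPM in KO mice and 34.72, 29.81 and 24.65 CPM in Myc mice (log2 fold change over Myc 0.89, SE 0.135, adjusted p = 0.000236). Of 33 genes that deposit, remove or read H2A.Z, 1 rose and 2 fell (median -0.065). This is near the background, since 5.87% of all genes were higher and 3.52% lower. Anp32e, the chaperone that removes H2A.Z, rose by 0.24 (adjusted p = 0.0142). Pwwp2b, a reader, and Ruvbl1, a remodeller subunit, fell by 0.51 and 0.28. The histone gene count was 2 without Myc mouse 31, and 4 without WT mouse 19 or Myc mouse 32. None of 13 genes of the mitochondrial genome passed. Where 5.87% of all genes were higher and 3.52% lower, 1 of 82 cytosolic ribosome genes rose and 2 of 63 respiratory chain genes fell, shares below the background that were each 0 without WT mouse 19, WT mouse 20 or Myc mouse 31. Of 44 collagen genes 6 rose, and the count was 1 without WT mouse 20 or Myc mouse 31, 2 without Myc mouse 32, 3 without Myc mouse 11 and 12 without WT mouse 40. Of 58 clustered protocadherin genes 1 rose and 2 fell, and 3 rose and 3 fell without WT mouse 40.

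The smallest adjusted p-values that were followed belonged to genes outside these lists, chosen after their values were seen. Pygo1, a co-activator of Wnt signalling, was at 47.89, 47.16, 46.25 and 62 CPM in WT mice, at 39.37, 40.21, 46.43 and 40.26 CPM in KO mice, and at 95.48, 89.84 and 88.34 CPM in Myc mice (log2 fold change over Myc -0.84, SE 0.1, adjusted p = 9e-06). Gpd2, the mitochondrial glycerol-3-phosphate dehydrogenase, was at 133.6, 121.6, 115.8 and 142.8 CPM in WT mice, at 103, 107.5, 118.7 and 121.9 CPM in KO mice, and at 180.6, 198 and 181.9 CPM in Myc mice. Rbm11, a splicing regulator, was at 4.81, 6.062, 4.678 and 6.865 CPM in WT mice, at 6.409, 6.783, 6.849 and 6.892 CPM in KO mice, and at 9.857, 10.99 and 10.73 CPM in Myc mice. All 3 genes fell with the WT mice close to the KO mice, passed in all 20 alternatives, and were lower in WT males too (log2 fold changes -0.78, -0.42 and -0.81).

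A few genes were shifted away from both KO and Myc mice. Of the 1669 genes higher than in Myc, 746 were lower than in KO, 44 were higher than in KO and 879 did not pass against KO. Of the 1000 lower genes, 144 were higher than in KO, 22 were lower and 834 did not pass. Over all genes tested, 5.36% were higher than in KO and 9.17% lower. The 44 and the 22 genes shifted away from both groups are smaller shares than these. Both comparisons use the same WT mice, so these counts are not independent. Pkd2l1 and Dach2 below were chosen after their values were seen. Pkd2l1, a channel of cerebrospinal-fluid-contacting neurons, was at 6.578, 6.421, 4.518 and 4.624 CPM in WT mice, at 2.908, 2.7, 1.604 and 1.934 CPM in KO mice, and at 1.836, 1.305 and 1.831 CPM in Myc mice. The WT mice lay above the KO and Myc mice (log2 fold change over Myc 1.73, SE 0.263, adjusted p = 0.000236, and over KO 1.27, SE 0.23, adjusted p = 0.000279). Females with the lysine mutants of H2A.Z.1 were at 4.112, 4.145, 1.965 and 2.52 CPM (alanine, KA) and at 4.849, 3.062 and 2.289 CPM (glutamine, KQ), and WT differed from neither at an adjusted p under 0.05. Male WT mice were at 3.677, 3.747, 4.641, 3.547 and 4.087 CPM, against 1.784, 1.396, 1.73 and 1.471 CPM in male Myc mice.

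Dach2, a transcriptional cofactor gene on the X chromosome, was at 7.566, 8.399, 9.31 and 4.091 CPM in WT mice, at 1.023, 1.473, 1.018 and 1.471 CPM in KO mice, and at 1.691, 1.226 and 0.4683 CPM in Myc mice (log2 fold change over Myc 2.66, SE 0.538, adjusted p = 0.00371). It passed in 17 of 20 alternatives, and in males it rose by 3.30. The KA females, at 8.614, 12.4, 6.812 and 9.205 CPM, and the KQ females, at 18.37, 9.577 and 9.284 CPM, were also above the KO and Myc mice. In the opposite direction, Stbd1, a glycogen-binding protein, was at 2.106, 1.387, 2.441 and 1.316 CPM in WT mice, at 3.501, 4.641, 6.448 and 11.99 CPM in KO mice, and at 9.906, 10.04 and 9.026 CPM in Myc mice. It fell below Myc by 2.40 (SE 0.499, adjusted p = 0.00418) and below KO by 1.86 (SE 0.472, adjusted p = 0.00639).

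Other genes differed from KO and not from Myc. Against KO, 1524 genes were higher in WT (5.36%) and 2610 were lower (9.17%), and the higher genes numbered 821 without KO mouse 13, 882 without KO mouse 14 and 974 without WT mouse 39. L3mbtl1, a chromatin-compacting reader of methylated histones, was at 13.26, 12.77, 16.57 and 11.17 CPM in WT mice, at 4.282, 3.86, 4.998 and 6.593 CPM in KO mice, and at 12.59, 11.9 and 14.01 CPM in Myc mice. WT and Myc mice overlapped (log2 fold change over KO 1.45, SE 0.147, adjusted p = 7.61e-08, and over Myc 0.07, adjusted p = 0.836). Wdr17, a WD-repeat protein, lay between the groups at 22.86, 22.58, 23.16 and 24.08 CPM in WT mice, 8.618, 9.55, 11.11 and 12.12 CPM in KO mice and 30.92, 37.8 and 37.21 CPM in Myc mice. Its log2 fold change was 1.16 over KO (adjusted p = 4.01e-10) and -0.61 over Myc (adjusted p = 0.000672). Ly6e, an interferon-inducible surface protein, was at 142.9, 147.8, 146 and 164 CPM in WT mice, at 282.9, 285.6, 253 and 369.3 CPM in KO mice, and at 152.3, 152.3 and 124 CPM in Myc mice.

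The same comparison in males, which share no mice with the females, gave 1042 genes higher (3.66%) and 477 lower (1.68%), and between 636 and 1078 higher and between 278 and 506 lower without any one male. Of the higher genes, 687 passed in both sexes, which is 41.2% of the female and 65.9% of the male genes. Of the lower genes, 303 passed in both, which is 30.3% and 63.5%. Of the 1669 genes higher in WT females, 1573 had a positive fold change in males, with a median of 1.07 in females and 0.541 in males. These genes were chosen by their female values, which raises the female median, so the medians do not measure a sex difference. Over all genes tested the male median was 0.024, and the share of positive genes was not counted. The direct test of the difference between the sexes passed for 0 genes by edgeR, with 1597 at an unadjusted p under 0.05 (5.61%), and for 24 by DESeq2. The female and male medians were 1.92 and 2.11 for the interferon list.

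**Figure D4:**
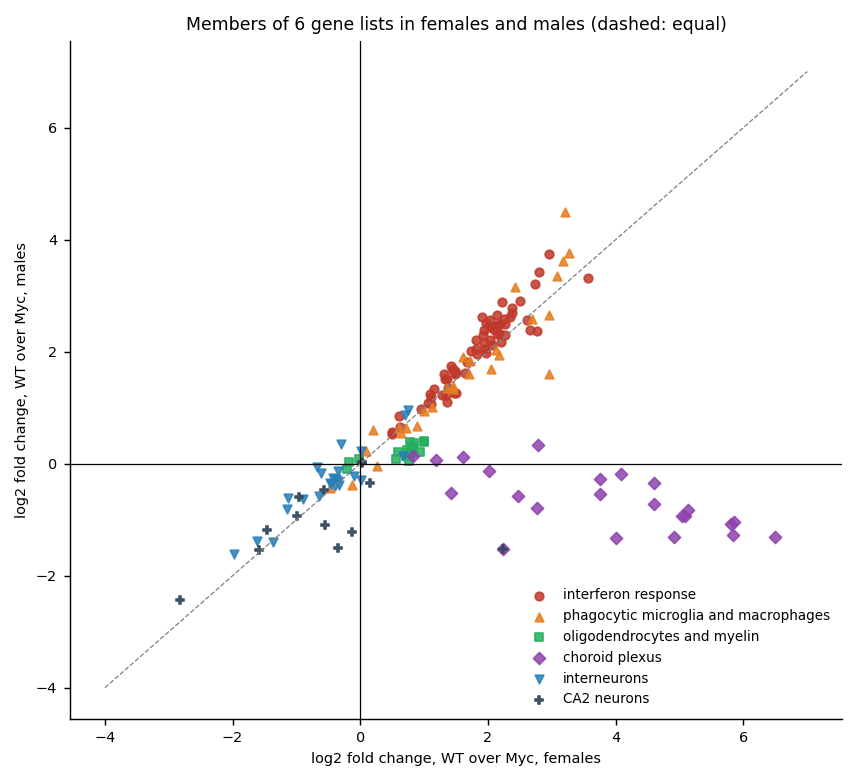
Log2 fold change of WT over Myc in females (horizontal) and males (vertical) for the members of 6 gene lists, 1 point per gene, with equality dashed. Interferon and phagocyte genes lie near the dashed line, oligodendrocyte genes lie below it with male values near 0, and the choroid plexus genes are positive in females and mostly negative in males.

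**Figure D5:**
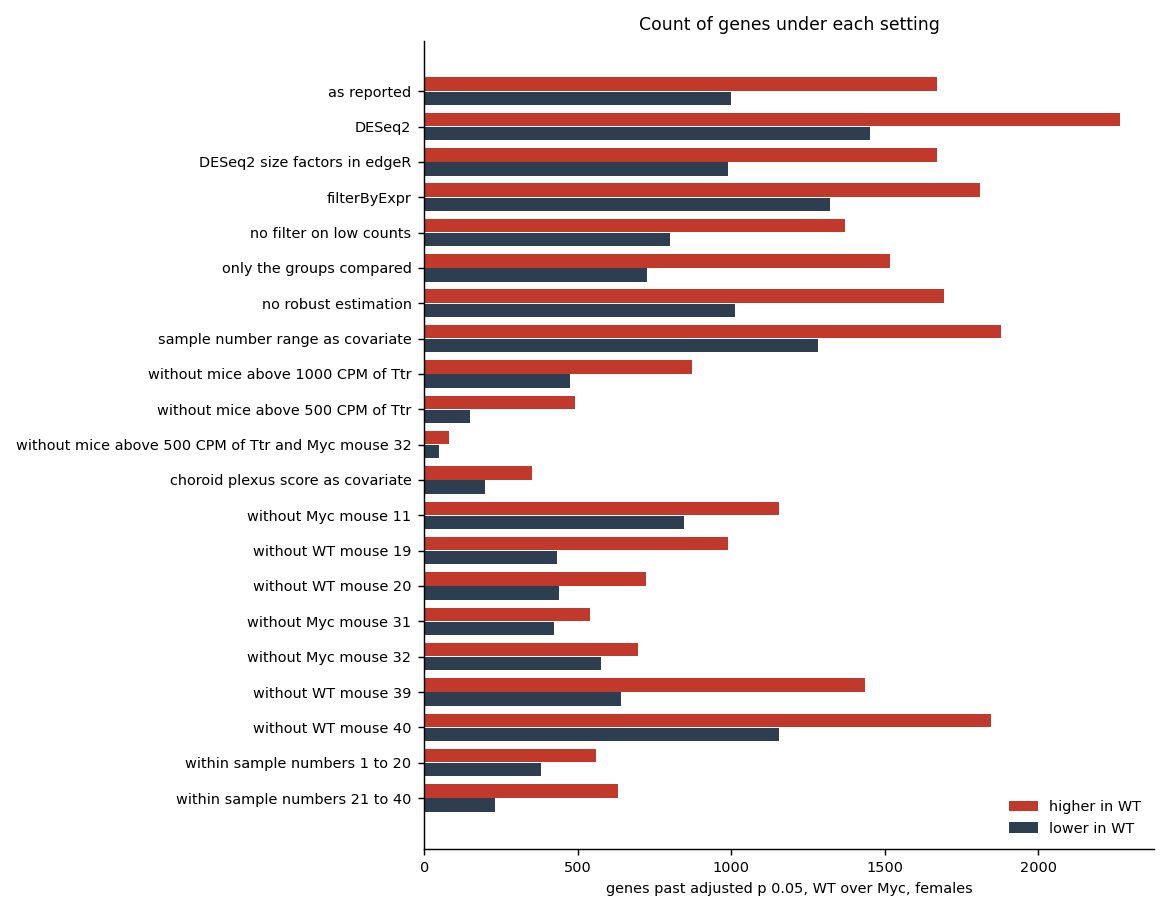
Number of genes past an adjusted p of 0.05 between female WT and Myc mice, as reported and under each of 20 alternatives, with bars from 0. The higher genes number from 80, without the mice above 500 CPM of Ttr and Myc mouse 32, to 2265 with DESeq2.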

How the data were processed

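The authors sequenced total hippocampal RNA as paired-end reads, aligned them to GRCm39 with Rsubread and counted reads per gene with featureCounts; the deposited table holds raw counts, and the deposited normalised table was not used here. The submitters' processing notes name FastQC 0.11.9 and DESeq2 1.38.3. Genes whose summed count over the 40 mice was below 20 were left out, and the remaining 28449 of 40853 entered edgeR 4.0.16 (TMM scaling, robust quasi-likelihood fit of 10 sex and virus groups, R 4.3.3), with Benjamini-Hochberg adjustment over all genes tested. CPM were scaled by TMM. The test was run on simulated data first. Genes were named by size of change without overlap between groups, by smallest p within each list, and by the genes the study names; those chosen after their values were seen are said to be so. The members and lists were chosen with earlier results of these data known. That samples are separate animals is assumed, and p-values measure the spread between these samples. Alternatives were DESeq2 1.42.0, other scaling, filters and samples, a choroid plexus score or sample number range as covariate, and each mouse left out. The 2 settings that leave out mice above 500 CPM of Ttr were chosen after seeing the data.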

Additional observations from a re-analysis of the deposited data

Results flagged for a closer look

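Among the 205 genes and list sums examined in the 4 female WT mice, 12 had 1 mouse whose gap to the nearest other mouse passed Dixon's 95% limit, and chance alone flags about 1 in 20. Mouse 19 was highest for Fos (34.5 CPM, next 18.3), Ier5 (67.89, next 49.22), H2bc6 (8.034, next 7.474) and the MHC class I sum (1169 CPM, next 1133), and lowest for Cpne7 (41.97 CPM, next 69.18). Mouse 20 was highest for Sst (93.34 CPM, next 69.09), Rarres2 (14.92, next 8.43) and Igfbpl1 (4.752, next 2.6). Mouse 39 was highest for Isg15 (19.97 CPM, next 12.43). Mouse 40 was highest for Pygo1 (62 CPM, next 47.89), Fkbp5 (55.56, next 39.75) and the clustered protocadherin sum (332.5 CPM, next 328.9).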

How the results depend on the processing

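No paired analysis was possible because each sample number is taken as 1 mouse and none is shared between groups. For WT over Myc in females, the counts of genes higher and lower at any fold and of DEGs higher and lower were 871, 475, 485 and 150 without the mice above 1000 CPM of Ttr, 490, 149, 316 and 43 without those above 500, 80, 48, 60 and 26 without those and Myc mouse 32, 351, 199, 230 and 69 with the choroid plexus score as covariate, 558, 379, 363 and 76 within sample numbers 1 to 20, and 632, 231, 442 and 72 within 21 to 40. The DEGs lower were 85 when only the groups compared were fitted. Leaving out each mouse gave 541 to 1845 higher, 422 to 1157 lower, 337 (without Myc mouse 31) to 1042 DEGs higher and 109 (without Myc mouse 32) to 356 DEGs lower. For WT over KO the higher genes were 788 with only the groups compared and 821 to 1821 without each mouse. In males the higher and lower genes were 1709 and 1166 with only the groups compared, 1590 higher with DESeq2, and 636 to 1078 higher (fewest without Myc mouse 23) and 278 to 506 lower (fewest without WT mouse 29) without each mouse. The difference between the sexes gave 24 genes with DESeq2 and 0 to 2 without each mouse; WT over KA and WT over KQ gave 0 genes, and 4 and 10 with DESeq2 (1168 and 754 at an unadjusted p under 0.05). Among genes that did not pass, Kiss1r (0.075, and -0.025 to 0.143 without each mouse) was at -0.025 without Myc mouse 11 and -0.131 within 21 to 40, Dkk2 (0.092, and -0.062 to 0.193 without each mouse) at -0.043 without the mice above 1000 CPM of Ttr, -0.062 without Myc mouse 11, -0.043 without WT mouse 20 and -0.112 within 21 to 40, and Th (0.436) at -0.582 within 21 to 40. The causes of these moves were not tested.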
